A study of Solanum tuberosum with 10 samples.

Results

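The spliceosomal small nuclear RNA (snRNA) loci were the 260 annotated loci of the classes U1, U2, U4, U5 and U6 among the 40430 features of a count table from potato (Solanum tuberosum, cultivar Desirée). They were taken as the noncoding features that carry their own identifier and one of those 5 class names. That rule uses no measured value, but it was chosen with earlier results of these data known. RNA was sequenced from ultrasonicated explants and from untreated control explants at 5 times, namely directly after treatment (0 h), 24 h and 48 h later, and after 1 and 4 weeks. Every explant was a node segment bearing a leaf, cut from a 4-week-old in vitro plantlet, and both arms were then grown on medium without growth regulators. Treatment took place in 50 ml beakers with 90 explants in 40 ml of liquid medium. Whether control explants were also immersed is not stated, so immersion and ultrasound cannot be told apart. RNA of 3 biological replicates was pooled into each library, which gives 1 library per arm and time and 10 libraries in all. The tissue is labelled as stem at 0 h and 24 h and as stem and plantlet afterwards, so time and tissue cannot be told apart either.

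Spliceosomal snRNAs are short noncoding RNAs that, with their proteins, form the particles that remove introns from messenger RNA precursors. U1 pairs with the 5′ splice site and U2 with the branch point, U4 holds U6 inactive by pairing with it, U5 aligns the exons, and U6 forms much of the catalytic centre. RNA polymerase II transcribes U1, U2, U4 and U5, whereas RNA polymerase III transcribes U6. Mature snRNAs carry no poly(A) tail, and in plants each class is encoded by a family of similar copies, many of which may be inactive.

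A stranded mRNA kit was used for the libraries and the design text also mentions rRNA removal, so the counts below cannot be read as the abundance of snRNAs in the cell. Library totals ran from 122786170 counts (control, 24 h) to 161153911 counts (control, 48 h). All snRNA loci together held 714 to 1761 counts per library. Levels are given as CPM, counts relative to library size after scaling by the trimmed mean of M-values, and a floor of 3 counts corresponds to 0.0165 to 0.0312 CPM. Intervals are exact 95% intervals and, like the floors, cover counting error only. RBCS-2C, a Rubisco small subunit gene that marks green tissue, was present in every library at 202 to 2064 CPM. In whole tissue, fewer cells and less RNA per cell cannot be told apart. How reads that map to several copies were counted is not given in the sources used here, so a value of a single locus may belong in part to a near-identical copy.

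Counts were recorded at 93 of the 260 loci (35.8%), and the other 167 had none in any library. The classes differed in family size and in the share of copies that were counted. U2 had counts at 30 of 59 loci (50.8%), U4 at 6 of 12 (50.0%), U1 at 30 of 71 (42.3%), U5 at 11 of 43 (25.6%) and U6 at 16 of 75 (21.3%). U6, with the smallest share of counted copies, nevertheless held 49.1% of all 13249 snRNA counts, against 27.7% for U2, 20.8% for U1, 1.22% for U5 and 1.06% for U4. Per kilobase of annotated locus, U6 had 845 counts over all libraries, U2 had 330, U1 had 251, U4 had 77.0 and U5 had 32.2. U4 and U6 work as a base-paired duplex in the spliceosome, and their annotated loci differed widely in counts recorded.

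**Figure D1:**
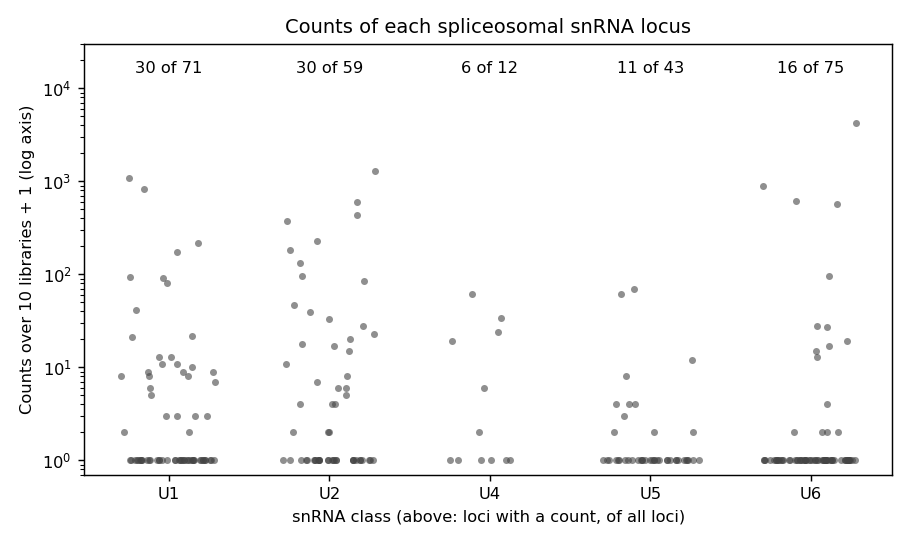
Each point is 1 annotated snRNA locus, placed by class on the horizontal axis and by its counts over the 10 libraries plus 1 on a logarithmic vertical axis; the text above each class gives loci with a count of all loci. Most loci lie at the bottom of the axis without a count, 15 loci reach 100 counts, and 1 U6 locus with 4214 counts stands highest.

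A few loci carried most of the signal. The single largest locus held 31.8% of all snRNA counts, the largest 5 held 62.6%, the largest 10 held 82.1% and the largest 50 held 98.8%. Every class was led by 1 locus that held between 34.7% (U2) and 64.7% (U6) of its class. A locus had counts in all 10 libraries in 11 of 260 cases, of which 5 were U2, 4 were U6 and 2 were U1. The number of loci with any count varied between 19 (ultrasonicated, 0 h) and 64 (control, 48 h) per library.

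The leading U6 locus, ENSRNA049458997, lies on the minus strand of chromosome 2 at 19626891 to 19626991. Positions are those of the deposited table, whose genome build is not given in the sources used here, so no sequence is shown for the loci. The second, ENSRNA049456125, lies on the minus strand of chromosome 3 at 8829039 to 8829141. ENSRNA049454416 on chromosome 10 (55762523 to 55762625) and ENSRNA049457713 on chromosome 1 (80259069 to 80259171), both on the plus strand, complete the 4 U6 loci with at least 100 counts. These 4 had 4214, 894, 614 and 574 counts, and the other 71 U6 loci shared 215.

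The leading U2 locus, ENSRNA049453121, lies on the plus strand of chromosome 5 at 13073726 to 13073855. It is the last of 3 annotated U2 pieces in a stretch of 0.484 kb on that strand, which are 200, 117 and 130 bases long with 36 bases and 1 base between them and hold 1520 counts together. ENSRNA049459368 lies on chromosome 2 (38906694 to 38906890, plus strand), ENSRNA049463276 on sequence not anchored to a chromosome (29377029 to 29377226, plus strand) and ENSRNA049461762 on chromosome 4 (60115921 to 60116117, minus strand). They held 16.1%, 11.8% and 10.1% of the U2 counts, beside 34.7% for the leading locus.

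U1 was led by ENSRNA049461575 on chromosome 8 (55874277 to 55874429, minus strand) with 1075 counts and ENSRNA049454542 on chromosome 10 (57211174 to 57211334, minus strand) with 829 counts, which together held 69.0% of the class. U4 counts came mainly from ENSRNA049462293 on chromosome 1 (61 counts), ENSRNA049455740 on chromosome 3 (33 counts), ENSRNA049458265 on chromosome 6 (23 counts) and ENSRNA049459296 on chromosome 2 (18 counts). U5 counts came mainly from a pair of loci on the plus strand of chromosome 1, ENSRNA049462709 (75218326 to 75218441, 69 counts) and ENSRNA049462719 (75216265 to 75216381, 60 counts), which held 80.1% of the class.

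Locus length was compared between counted and uncounted copies. Each class had a most frequent length, which was 161 bases for U1, 196 for U2, 153 for U4, 117 for U5 and 103 for U6. Counts were recorded at 56 of the 113 loci of that length (49.6%) and at 37 of the 147 loci of other lengths (25.2%). In U1, 23 of 36 loci of the usual length and 7 of 35 others had counts, in U2 17 of 27 and 13 of 32, and in U6 7 of 20 and 9 of 55. U5 (26.9% and 23.5%) and U4 (50.0% and 50.0%) showed little or no such difference. The counts themselves did not follow this division, since loci of other lengths held 66.2% of them. The leading loci of U6 (101 bases), U2 (130 bases) and U1 (153 bases) were all shorter than the usual length of their class.

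With neighbours joined where at most 10000 bases lie between them, 122 of the 260 loci fell into 26 clusters, 24 of which lie on 1 strand. Clustering was common for U1 (48 of 71 loci), U2 (40 of 59) and U5 (27 of 43), and rare for U6 (4 of 75) and U4 (3 of 12). U1 and U5 loci occurred in common clusters in 4 cases, which hold 21 of the 43 U5 loci. The largest of these, on the minus strand of chromosome 1 at 3169349 to 3197030, holds 15 U1 and 13 U5 loci, and the class changes at 23 of its 27 neighbouring pairs.

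Large clusters had few counts in these libraries. The alternating U1 and U5 array of 28 loci had 34 counts in total, at 8 loci. Chromosome 7 holds 26 of the 59 U2 loci, with 120 of the 3676 U2 counts. The exception among clusters of at least 7 loci was a run of 7 U1 loci on chromosome 10 (57195884 to 57212536), which had 984 counts, 84.2% of them at ENSRNA049454542. With all classes pooled, clustered loci had counts in 41.8% of cases and solitary loci in 30.4%. Likewise, loci within 1000 bases of a gene model had counts in 45.9% and those farther away in 32.7%. U6, with the smallest share of counted loci (21.3%), had only 4 of 75 loci in clusters. The pooled shares therefore do not separate position from class.

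Over all loci, the summed snRNA level in ultrasonicated explants was 7.41, 10.1, 9.62, 10.3 and 7.36 CPM in the order of the 5 times, against 14.0, 11.3, 9.7, 9.22 and 7.33 CPM in controls. The control library at 0 h was the highest and both libraries at 4 weeks were the lowest, a 1.91-fold range. The counting interval of the ultrasonicated library at 0 h (6.88 to 7.98 CPM) included both 4-week values. By total counts alone, this ultrasonicated library was instead the lowest. The U1 locus ENSRNA049461575 supplied 741 of the 1581 snRNA counts of the control library at 0 h. Without this locus the range was 1.71-fold, and the ultrasonicated library at 0 h was again the lowest, at 6.52 CPM. The 4-week libraries then had 7.12 CPM (ultrasonicated) and 7.33 CPM (control). The omission of this locus was chosen after its values were seen.

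**Figure D2:**
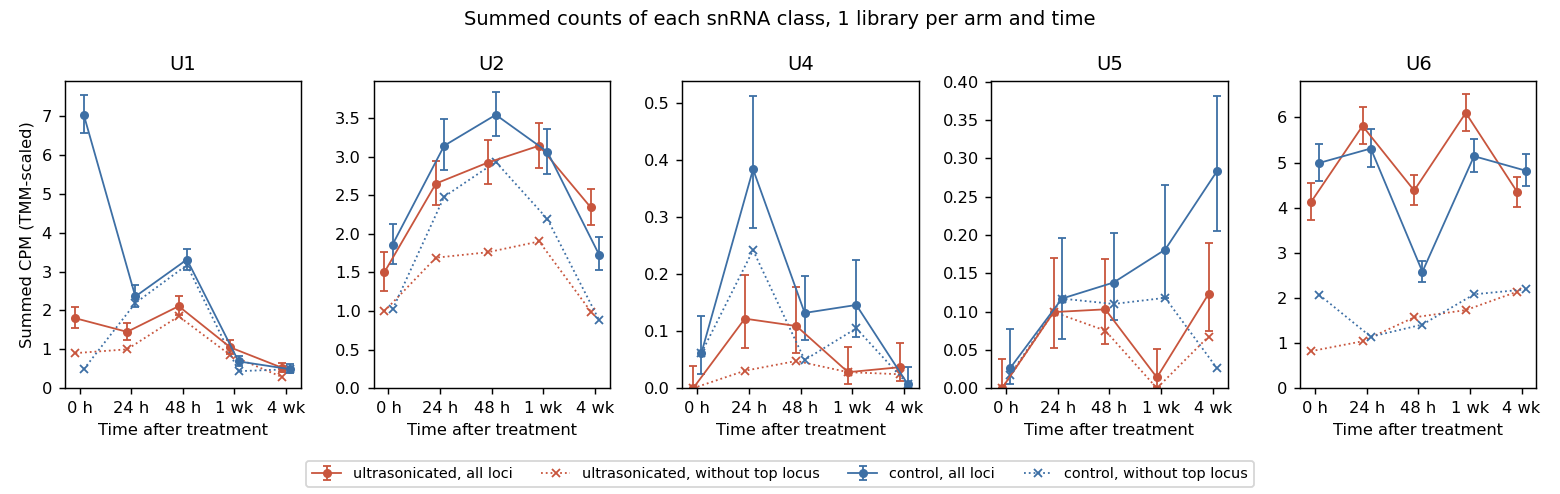
Each panel shows 1 class, with time after treatment on the horizontal axis (times are evenly spaced, not to scale) and summed CPM on the vertical axis, which differs between panels; circles are all loci with exact 95% counting intervals and crosses leave out the largest locus of the class. The control U1 value at 0 h is 7.04 CPM with all loci and 0.486 CPM without the largest, and U6 is lower by more than 1 CPM without its largest locus in every library.

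U1 summed to 1.8, 1.45, 2.11, 1.05 and 0.527 CPM in ultrasonicated explants over the 5 times, against 7.04, 2.36, 3.31, 0.69 and 0.488 CPM in controls. Both arms had their lowest U1 level at 4 weeks. Without the largest U1 locus this held only in ultrasonicated libraries, at 0.288 CPM. The control sums without it were 0.486 CPM at 0 h, 0.439 CPM at 1 week and 0.488 CPM at 4 weeks. U2 summed to 1.5, 2.65, 2.92, 3.14 and 2.34 CPM in ultrasonicated libraries, against 1.86, 3.14, 3.54, 3.06 and 1.73 CPM in controls. In both arms the U2 sum was higher at 24 h, 48 h and 1 week than at either end of the series. U6 summed to 4.12, 5.81, 4.38, 6.1 and 4.34 CPM in ultrasonicated libraries, against 4.99, 5.31, 2.58, 5.14 and 4.82 CPM in controls, with the highest values at 24 h and 1 week in both arms. Without its largest locus, the U6 sum was instead highest at 4 weeks in both arms. It was then 0.82, 1.04, 1.57, 1.73 and 2.14 CPM in ultrasonicated libraries, against 2.07, 1.14, 1.41, 2.08 and 2.19 CPM in controls.

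U4 and U5 were close to the detection limit. U4 had 0, 16, 16, 4 and 6 counts in ultrasonicated explants over the 5 times, against 7, 46, 24, 21 and 1 counts in controls. U5 had 0, 13, 15, 2 and 20 counts in ultrasonicated explants, against 3, 14, 25, 26 and 43 counts in controls. A count of 0 in the ultrasonicated library at 0 h has an exact upper 95% limit of 0.0383 CPM, where the floor of 3 counts is 0.0312 CPM. Absence was therefore not detectable at this depth.

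At single loci, time courses differed widely within a class. The leading U6 locus, ENSRNA049458997, was above 1 CPM in every library, at 3.3, 4.77, 2.82, 4.37 and 2.2 CPM in ultrasonicated libraries, against 2.93, 4.18, 1.17, 3.06 and 2.63 CPM in controls. The second U6 locus, ENSRNA049456125, had 0.0727, 0.49, 1.09, 0.815 and 0.325 CPM in ultrasonicated libraries, against 0.301, 0.418, 0.661, 1.21 and 0.771 CPM in controls. Both of its 0 h libraries lay below every later library. ENSRNA049454416 had 0.104, 0.0153, 0.253, 0.414 and 0.95 CPM in ultrasonicated libraries, against 0.769, 0.343, 0.286, 0.571 and 0.586 CPM in controls. ENSRNA049457713 had 0.374, 0.153, 0.103, 0.428 and 0.809 CPM in ultrasonicated libraries, against 0.875, 0.201, 0.292, 0.16 and 0.731 CPM in controls. At both of these loci, each arm was lower at 24 h and 48 h than at 4 weeks.

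Among U2 loci, ENSRNA049453121 had 0.498, 0.956, 1.16, 1.24 and 1.34 CPM in ultrasonicated libraries, against 0.84, 0.66, 0.611, 0.871 and 0.85 CPM in controls. Its ultrasonicated libraries were above the control at the 4 later times and below it at 0 h. ENSRNA049459368 had 0.509, 0.191, 0.226, 0.597 and 0.245 CPM in ultrasonicated libraries, against 0.336, 0.309, 0.54, 1.11 and 0.191 CPM in controls, with the highest value of both arms at 1 week. ENSRNA049461762 had 0, 0.115, 0.478, 0.492 and 0.0858 CPM in ultrasonicated libraries, against 0.0972, 0.351, 0.391, 0.39 and 0.152 CPM in controls. In both arms this locus was highest at 48 h or 1 week.

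ENSRNA049463276 was the U2 locus with the clearest dependence on time. It had 1, 83, 64, 33 and 1 counts in ultrasonicated explants in the order of the 5 times, against 0, 81, 163, 9 and 0 counts in controls. Every library at 24 h, 48 h and 1 week lay above every library at 0 h and 4 weeks. In CPM these were 0.0104, 0.635, 0.437, 0.232 and 0.00613 in ultrasonicated explants, against 0, 0.677, 0.898, 0.0627 and 0 in controls.

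Of the U1 loci, ENSRNA049454542 had 44, 38, 169, 11 and 4 counts in ultrasonicated explants, against 11, 123, 408, 20 and 1 counts in controls. Both libraries at 48 h were above all others and both at 4 weeks below all others. ENSRNA049461575 had 86, 58, 39, 29 and 39 counts in ultrasonicated explants, against 741, 21, 26, 36 and 0 counts in controls, so that 1 library held 741 of its 1075 counts. ENSRNA049459604 on chromosome 11, named after its values were seen, had 0, 17, 30, 23 and 3 counts in ultrasonicated explants, against 0, 47, 44, 8 and 0 counts in controls. Like the U2 locus ENSRNA049463276, it was counted at 24 h, 48 h and 1 week and had at most 3 counts in any library at 0 h and 4 weeks.

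In the scarce classes, the U4 locus ENSRNA049462293 had 0, 12, 9, 0 and 2 counts in ultrasonicated explants, against 0, 17, 15, 6 and 0 counts in controls. The U5 locus ENSRNA049462719 had 0, 8, 5, 0 and 1 counts in ultrasonicated explants, against 0, 14, 15, 17 and 0 counts in controls. Its neighbour ENSRNA049462709 had 0, 0, 4, 2 and 9 counts in ultrasonicated explants, against 1, 0, 5, 9 and 39 counts in controls, highest at 4 weeks in both arms. The 2 leading U5 loci, with 1944 bases between them, thus had different time courses.

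**Figure D3:**
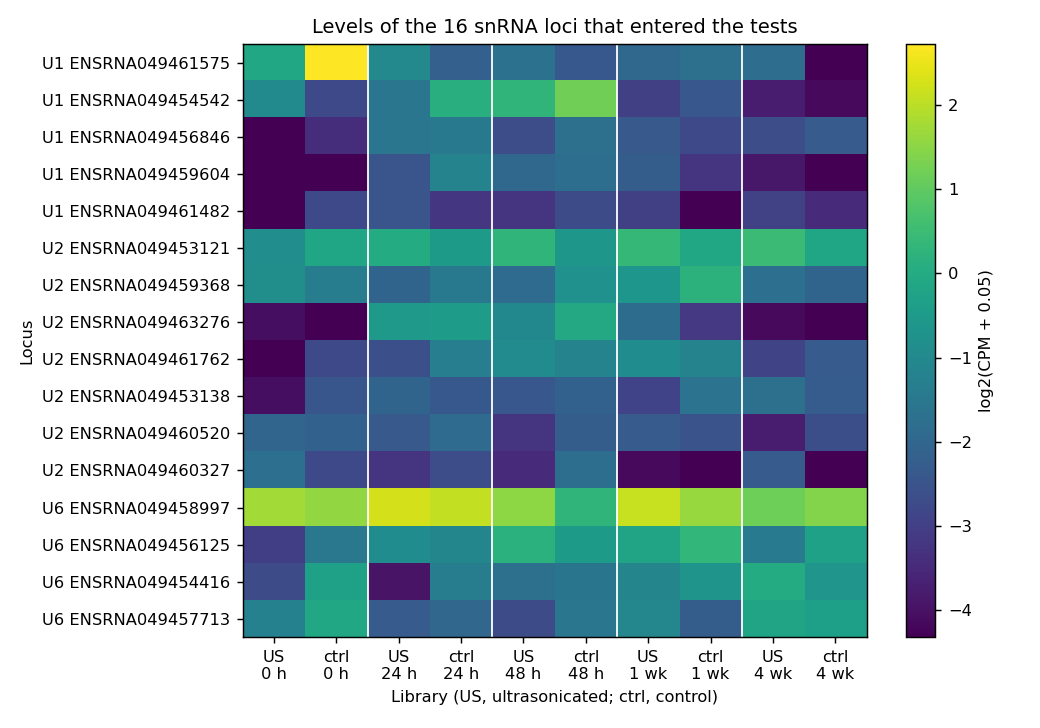
Rows are the 16 snRNA loci with enough counts to be tested, grouped by class, columns are the 10 libraries with the ultrasonicated library left of the control at each time, and colour is log2(CPM + 0.05). The U6 locus ENSRNA049458997 is high in all 10 libraries, whereas the U2 locus ENSRNA049463276 is near the bottom of the scale at 0 h and 4 weeks and higher between.

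Peak times were counted over the 51 loci with at least 10 counts, using the mean of both arms. The highest mean was seen directly after treatment for 7 loci, at 24 h for 19, at 48 h for 9, and in the later weeks for 9 (1 week) and 7 (4 weeks). In the order of the 5 times these were 13.7%, 37.3%, 17.6%, 17.6% and 13.7% of the loci, beside 25.7%, 19.0%, 12.7%, 20.5% and 22.1% of the 24421 features tested. Those 24421 features had passed a filter on low counts that only 16 of the 260 snRNA loci passed, so the compared sets differ in depth. The peak fell at the same time in both arms for 17 of the 51 loci, namely 1, 5, 6, 2 and 3 in the order of the 5 times. The share of all tested features with the same peak in both arms was not counted. The number of these loci without a count in either arm was 20, 8, 3, 14 and 13 over the 5 times.

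Time was tested in an additive model of time and arm with edgeR's quasi-likelihood F-test on the whole table, in which the arms are the only repeats of a time. The resulting p-values reflect the spread of pooled libraries, not of plants. Of the 260 loci, 16 passed the filter on low counts (5 U1, 7 U2 and 4 U6). Over the 5 times, 2 of these 16 passed at an adjusted p below 0.05, whereas 28% of all tested features did. They were the U2 locus ENSRNA049463276 (adjusted p = 0.0293, edgeR) and the U1 locus ENSRNA049454542 (adjusted p = 0.0478, edgeR). The call of ENSRNA049463276 ended without either library of 24 h, 48 h or 4 weeks or without the ultrasonicated library of 1 week (adjusted p 0.0515 to 0.0861, edgeR). The leading loci of U6 and U2 did not pass, with adjusted p = 0.305 for ENSRNA049458997 and 0.917 for ENSRNA049453121 (edgeR).

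By edgeR, 1 of the 16 tested snRNA loci rose at 24 h, the U2 locus ENSRNA049463276, where 9.46% of all tested features were called higher. Its 2 libraries had 164 counts at 24 h against 1 count at 0 h, a ratio of 137 (95% counting interval 24.3 to 5450), and the fitted log2 fold change was 6.96 (SE 1.78, adjusted p = 0.0318, edgeR). By edgeR it was also the 1 locus that rose at 48 h, beside 9.93% of all features, with 227 counts against 1 count, a ratio of 145 (25.8 to 5750) and a log2 fold change of 7.08 (SE 1.80, adjusted p = 0.03, edgeR). These 2 contrasts share the 0 h libraries. Both calls ended when any 1 of the 6 libraries at 0 h, 24 h or 48 h was left out, with adjusted p up to 0.127 at 24 h and 0.17 at 48 h. With the 48 h pair left out, the locus no longer passed the filter on low counts.

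DESeq2 made more calls, both among the snRNA loci and among all features. Over the 5 times it called 3 of the 16 loci, beside 47.7% of all features, the third being the U1 locus ENSRNA049461575 (adjusted p = 0.00951, DESeq2). At 24 h it called 2 loci higher, beside 14% of features, and 1 lower, beside 16.2%. At 48 h it called 3 loci higher, beside 15% of features, and 1 lower, beside 15.8%. The added higher calls were the U1 locus ENSRNA049459604 at both times and the U6 locus ENSRNA049456125 at 48 h. The lower one was ENSRNA049461575, which DESeq2 also called lower at 1 week and 4 weeks, with log2 fold changes of -4.02 to -5.64 over the 4 later times. The control library held 741 of the 827 counts of that locus at 0 h.

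ENSRNA049454542 had 577 counts at 48 h against 55 at 0 h in both libraries together, a ratio of 6.7 (5.08 to 9.01), and 5 at 4 weeks against 55 at 0 h, a ratio of 0.0605 (0.0189 to 0.15). Neither contrast passed by itself (log2 fold change 2.56, SE 1.27, adjusted p = 0.193 at 48 h, and -4.08, SE 1.38, adjusted p = 0.101 at 4 weeks, edgeR). Its call over the 5 times was lost whenever a library of 24 h, 48 h, 1 week or 4 weeks was left out. Without the whole pair of 1 of these times, the adjusted p was 0.0502 to 0.196 (edgeR). The call was kept when a 0 h library was left out.

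At 1 week, 0 of the 16 loci passed against 0 h by edgeR, where 24.7% of all features did. At an unadjusted p below 0.05 there were 4 of 16 loci, beside 38.6% of all features. DESeq2 called 4 loci, beside 34.2% of features, and limma-voom 0, beside 25.7%. At 4 weeks, 0 of the 16 passed by edgeR, beside 11.7% of all features. There were 2 loci at an unadjusted p below 0.05, beside 27.6% of features, 2 by DESeq2, beside 21.3%, and 0 by limma-voom, beside 12.3%. The median log2 fold changes of the 16 loci for 24 h, 48 h, 1 week and 4 weeks were 0.63, 0.45, 0.59 and 0.23, beside 0.01, 0.04, 0.06 and 0.10 for all tested features. Loci with a positive fold change numbered 10, 10, 10 and 9 of 16 at these times, and the share of all features was not counted.

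Ultrasound was tested first as a change common to the 5 times. Of the 16 snRNA loci, 0 passed by edgeR, DESeq2 or limma-voom, and 0 had an unadjusted p below 0.05 by edgeR. Of all tested features, 0% passed by edgeR, 0.217% by DESeq2 and 0% by limma-voom, and 3.34% had an unadjusted p below 0.05 by edgeR. Fitted log2 fold changes ran from -1.25 (ENSRNA049454416, SE 0.96) to 0.70 (ENSRNA049460327, SE 1.59), with a median of -0.24 beside 0.02 over all features and 7 of 16 above 0. The most precise was that of the U6 locus ENSRNA049458997, at 0.37 (SE 0.32, adjusted p = 0.999, edgeR). A difference in the ultrasound effect between 1 and 4 weeks and the 3 earlier times was found at 0 of the 16 loci by edgeR, DESeq2 and limma-voom, with 0 at an unadjusted p below 0.05 by edgeR. It was found at 0% of all features by edgeR, 0.815% by DESeq2 and 0% by limma-voom, and 4.18% had an unadjusted p below 0.05 by edgeR. Its log2 estimates had a median of 1.39 over the 16 loci, beside 0.02 over all features, and 13 of 16 were above 0. Their SEs ran from 0.67 (ENSRNA049458997) to 3.25 (ENSRNA049460327). The share of all features above 0 was not counted for either contrast, and loci are not repeats of a condition.

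At a single time each arm has 1 library, so arms were compared without a test, and a locus was counted as apart only when its whole counting interval lay beyond 2-fold. At 0 h, 1 of the 16 loci was higher in ultrasonicated explants and 4 were lower, beside 11.6% and 11.2% of all features. At 24 h, 0 were higher and 2 lower, beside 5.2% and 7.15%. At 48 h, 1 was higher and 1 lower, beside 2.64% and 5.04%. At 1 week, 1 was higher and 0 lower, beside 6.74% and 10.4%, and at 4 weeks, 2 were higher and 0 lower, beside 5.95% and 6.38%.

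At 0 h, the 4 loci lower in ultrasonicated explants belonged to 3 classes. The U1 locus ENSRNA049461575 had 86 counts in ultrasonicated explants against 741 in controls, a ratio of 0.136 (0.108 to 0.171). The U6 locus ENSRNA049454416 had 10 counts against 87, a ratio of 0.135 (0.0626 to 0.26). The U2 locus ENSRNA049461762 and the U1 locus ENSRNA049461482 each had 0 counts in ultrasonicated explants against 11 in controls. The upper 95% limit of this ratio was 0.468, and with the floor of 3 counts in place of 0 the level was 3.12-fold lower. The U1 locus ENSRNA049454542 went the other way, with 44 counts in ultrasonicated explants against 11 in controls, a ratio of 4.7 (2.39 to 10.1).

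The direction at a locus often differed between times. ENSRNA049454542 was higher in ultrasonicated explants at 0 h and lower at 24 h, with 38 counts against 123 and a ratio of 0.283 (0.191 to 0.41). ENSRNA049461575 was lower at 0 h, and at 4 weeks it had 39 counts in ultrasonicated explants against 0 in controls. That was 12.1-fold higher by the floor, with a lower 95% limit of the ratio of 9.38. The U2 locus ENSRNA049460327 had 6 counts in ultrasonicated explants against 44 in controls at 48 h, a ratio of 0.169 (0.0589 to 0.399). At 4 weeks it had 25 against 0, 7.76-fold higher by the floor (lower 95% limit 5.85). ENSRNA049461482 had 11 counts in ultrasonicated explants against 0 in controls at 1 week, 3.7-fold higher by the floor (lower 95% limit 2.53). ENSRNA049454416 remained lower at 24 h, with 2 counts in ultrasonicated explants against 41 in controls, a ratio of 0.0447 (0.00523 to 0.172). At 48 h the leading U6 locus ENSRNA049458997 had 412 counts in ultrasonicated explants against 212 in controls, a ratio of 2.41 (2.04 to 2.86). With 1 library per arm, the spread between libraries of 1 condition is not known, so these intervals do not show whether the differences exceed it.

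Summed over all loci, the ratio of ultrasonicated to control explants was 0.531 (0.485 to 0.58) directly after treatment. It was 0.894 after 24 h, 0.992 after 48 h, 1.12 after 1 week and 1.0 after 4 weeks. Without ENSRNA049461575, an omission chosen after its values were seen, the ratio at 0 h was 0.878. Without the largest locus, ENSRNA049458997, it was 0.372 (0.332 to 0.417). Over the 16 tested loci the median log2 ratio at 0 h was -0.97, beside 0.004 over all tested features. For U1 alone the ratio at 0 h was 0.255 (0.215 to 0.301), and without ENSRNA049461575 it was 1.86 (1.31 to 2.65), in the opposite direction. U2 ratios ran from 0.806 at 0 h to 1.35 at 4 weeks. U6 ratios ran from 0.825 at 0 h to 1.7 at 48 h, and without the leading U6 locus they were 0.397 (0.303 to 0.514) at 0 h and 1.11 at 48 h. U5 was lower in ultrasonicated explants at 1 week, with 2 counts against 26 and a ratio of 0.0775 (0.00892 to 0.31), and 17 of those 26 control counts were at ENSRNA049462719.

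**Figure D4:**
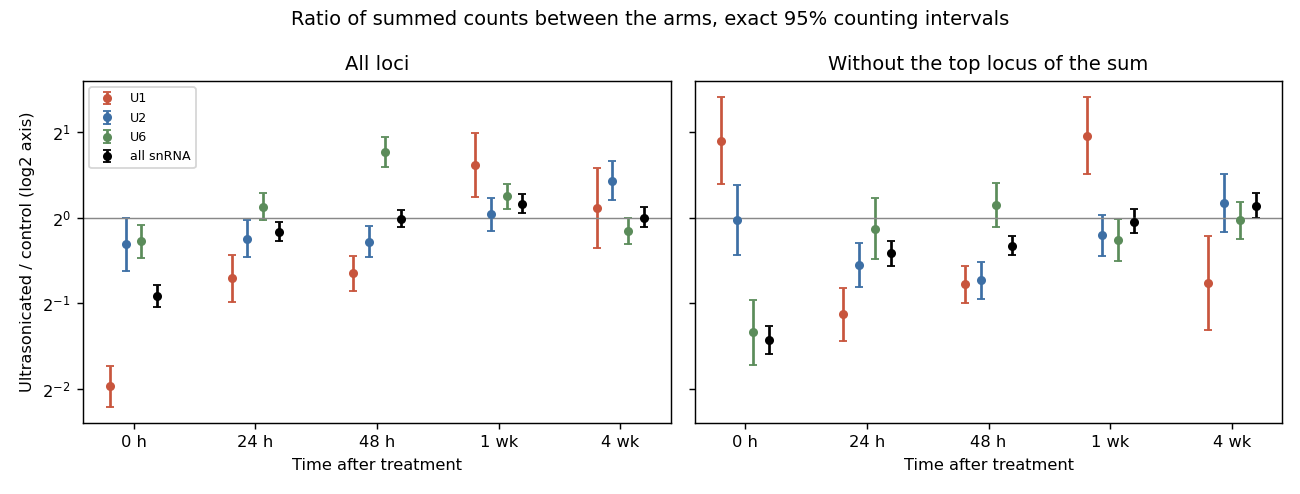
Ratios of summed counts of ultrasonicated to control libraries, scaled for library size, at each time on a log2 axis, with exact 95% counting intervals, for all loci (left) and without the largest locus of each sum (right). The U1 ratio at 0 h is 0.255 on the left and 1.86 on the right, and the sum over all loci lies between 0.531 and 1.12 on the left.

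Of the loci named for their share of class, their total or an edgeR call, 7 had a gene model within 1000 bases. PGSC0003DMG400014176 also lies 828 bases from ENSRNA049461482, which was named after its values were seen, on the opposite strand. PGSC0003DMG400012287 ends 686 bases from ENSRNA049461575 on the opposite strand, and had 13.3 CPM in ultrasonicated explants against 9.7 CPM in controls at 0 h, where the U1 locus had 0.893 CPM against 6.55 CPM. At 0 h and 48 h the arms thus differed in opposite directions at the gene model and the locus, and at 24 h, 1 week and 4 weeks in the same direction. At 4 weeks the gene model had 21.0 CPM in ultrasonicated explants against 14.5 CPM in controls, and the locus 0.239 CPM against 0. PGSC0003DMG400040129 lies 31 bases from ENSRNA049454542 on the same strand and had 38 counts in all, at 24 h and 48 h, where 738 of the 829 counts of the locus also lay. PGSC0003DMG400019446, 605 bases from the U5 locus ENSRNA049462719 on the same strand, had 335 CPM in ultrasonicated explants against 11.3 CPM in controls at 0 h, and the locus had no count in either library. PGSC0003DMG400045481, 807 bases from the U4 locus ENSRNA049462293 on the same strand, had 80 counts in all. The neighbours of ENSRNA049455740, ENSRNA049459296 and ENSRNA049462709 lie on the opposite strand. Whether transcripts that run past the ends of gene models add counts at snRNA loci was not tested.

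Other noncoding RNA classes of the same libraries give a scale for these values. Small nucleolar RNAs, which guide the modification of rRNA and other RNAs, had counts at 52 of 82 loci (63.4%) and 880 counts per kilobase, against 35.8% and 361 for the snRNA loci. Signal recognition particle (SRP) RNA, the RNA of the particle that targets proteins to membranes, had counts at 44.0% of 50 loci, and tRNA at 6.31% of 523. Across the libraries the small nucleolar RNA sum ranged from 6.34 to 10.2 CPM, while rRNA ranged from 295 to 22500 CPM and SRP RNA from 2.07 to 82.4 CPM. The control library at 24 h was highest for both rRNA and SRP RNA. In that library the snRNA sum was 11.3 CPM, against 10.1 CPM in the ultrasonicated library of the same time, and rRNA was 647 CPM in ultrasonicated explants against 22500 CPM in controls.

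**Figure D5:**
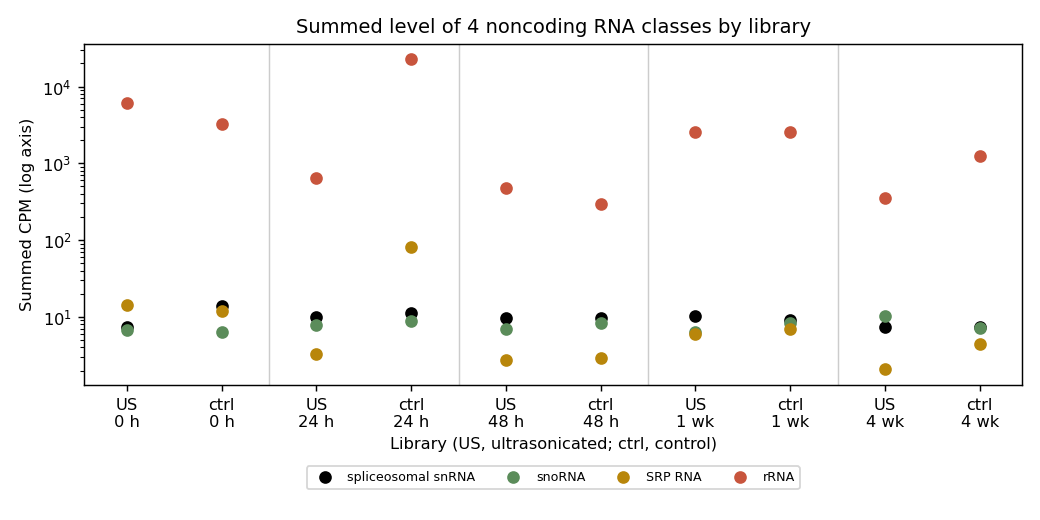
Summed CPM of spliceosomal snRNA, small nucleolar RNA, SRP RNA and rRNA in each of the 10 libraries, on a logarithmic axis, with the ultrasonicated library left of the control at each time. The snRNA sum stays between 7.33 and 14.0 CPM, whereas rRNA reaches 22500 CPM in the control library at 24 h.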

How the data were processed

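RNA-seq of 10 pooled libraries (2 arms, 5 times, 1 library each) was analysed. Per the submitters' processing notes, reads went through HISAT2 2.1.0, Trim Galore 0.5.0 and FastQC 0.11.5, in an order not stated. Not given in the sources used here: how reads were counted, with which strand setting and treatment of multiple matches, and on which genome build and annotation. Values deposited by the authors are whole-number counts for each feature without normalization. Features without their own class name were left out: 169 noncoding features carry the name of an overlapping feature, so any snRNA loci among them are not counted here, and 1 of the 260 loci overlaps a gene model. Minor spliceosomal snRNAs had 0 rows.

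From these counts, edgeR 4.0.16 in R 4.3.3 kept 24421 features with filterByExpr on arm and scaled libraries by TMM. Quasi-likelihood F-tests used time plus arm (4 residual degrees of freedom), and arm by late time, with Benjamini-Hochberg adjustment over all 24421 features. Simulated data had a fixed dispersion of 0.1 and 200 features, drawn from all 24421, changed 4-fold. There the 24 h contrast recovered 68.5% at 6 false calls, the common ultrasound effect 99.0% and the interaction 18.0%. Most of the 24421 features are gene models, whose median was 1823 counts over all gene models. These shares therefore do not give the recovery at the 16 tested snRNA loci, which was not simulated. Ratios at 1 time are descriptions with exact Clopper-Pearson intervals, made with scipy 1.17.1.

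Named loci are those with at least 10% of their class total, the 10 with the largest totals and those called by edgeR, together with gene models within 1000 bases of them. Other loci named were chosen after their values were seen. The members and lists were chosen with earlier results of these data known. The alternatives were other scalings (median-ratio, total counts, rRNA left out), other filters, DESeq2 1.42.0, limma-voom (limma 3.58.1), omission of libraries or time pairs, a fit without the time block, and sums without the largest locus. Spliceosomal protein genes were not analysed here, since no feature could be matched to a name in the lists.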

Additional observations from a re-analysis of the deposited data

How the results depend on the processing

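Depth limits the tests, since 16 of 260 loci passed the filter on low counts and 11 had counts in every library. Over the 5 times edgeR called 2 loci, 0 with a filter at a mean of 1 CPM, where 1 locus was left, and 0 to 2 with libraries or time pairs left out, whereas DESeq2 called 3. At 24 h and at 48 h it called 1 locus each, 0 under the 1 CPM filter and 0 to 1 with libraries left out, whereas DESeq2 called 3 and 4. At 1 week and 4 weeks edgeR called 0, DESeq2 4 and 2, and leaving out libraries gave 0 to 1. The cause of the difference between tools was not tested. The time call of ENSRNA049463276 ended without either library of 24 h, 48 h or 4 weeks, without the ultrasonicated library of 1 week, or without the 4-week pair (adjusted p 0.0515 to 0.0861, edgeR), and without the 24 h or the 48 h pair it could not be tested. The counts for ultrasound and for its difference between late and early times were 0 under every alternative run. The ratio of the highest to the lowest summed library was 1.91, and was 2.43 by total counts, 2.69 without the largest locus, 1.71 without ENSRNA049461575 and 1.55 to 1.91 with libraries left out. The ratio of ultrasonicated to control sums at 0 h was 0.531, and was 0.412 by total counts, 0.372 without the largest locus and 0.878 without ENSRNA049461575. The omission of ENSRNA049461575 was chosen after its values were seen. Without the largest locus the ratios for 24 h, 48 h, 1 week and 4 weeks were 0.75, 0.798, 0.969 and 1.1, and the U1 ratio at 0 h reversed to 1.86. Scaling by total counts moved the median log2 fold change of all features against 0 h to 0.35, 0.53, 0.46 and 0.61 over the 4 later times, and the number of loci called stayed 1, 1, 0 and 0. No paired analysis by replicate number was possible because every arm and time has 1 library, and ultrasound was tested with time as a block. Without that block the count for ultrasound was also 0.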
